A study of Homo sapiens with 9 samples.

Results

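The metallothioneins, their transcription factor MTF1 and the zinc exporter gene SLC30A1 were followed across 9 RNA sequencing libraries of Weri-RB1/CRP cells. The members were chosen by gene symbol from a list of 8 genes: MT1E, MT1F, MT1G, MT1M, MT1X, MT2A, MTF1 and SLC30A1. Rows for 7 of them were read from the deposited table of 27407 features, and 5 of these passed the filter on low counts that left 18767 features for testing. MT1G was not analysed here. The labels describe Weri-RB1/CRP as a retinoblastoma line resistant to carboplatin, a platinum drug that crosslinks DNA. All 3 groups are this line: shNC carries a control short hairpin RNA, while shSNHG1#1 and shSNHG1#2 carry hairpins meant to lower SNHG1, a long noncoding RNA gene that the series title ties to carboplatin resistance. Each group has 3 libraries, and no group is labelled as treated with carboplatin, zinc or another metal. Whether the cells of a group were 1 clone or a pool is not given in the sources used here. SNHG1 itself was not analysed here, so groups follow the labels.

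Metallothioneins are small proteins, rich in cysteine, that bind zinc and copper and can take up cadmium and platinum. When free zinc rises, the zinc finger protein MTF1 moves to metal response elements in the promoters of metallothionein genes and of SLC30A1 and raises their transcription. SLC30A1 encodes ZnT1, which carries zinc out of the cell across the plasma membrane, so the same signal drives both storage and export of the metal. Glucocorticoids, oxidative stress and hypoxia are also known to raise metallothionein transcripts.

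The libraries were of nearly equal depth, with 21502093 to 21606498 estimated counts in total. Photoreceptor transcripts, the defining ones of a retinoblastoma of this kind, were almost absent: 9 of 11 listed markers stayed below 1 FPKM (fragments per kilobase of transcript, scaled to library depth) in every library, among them CRX and RCVRN. The summed level of those 11 markers was 20.4 to 22.02 FPKM in shNC, 18.7 to 19.3 in shSNHG1#1 and 18.7 to 19.7 in shSNHG1#2, most of it from the cone gene GNAT2. The 7 epithelial markers, led by KRT8 and KRT18, summed to 1637 to 1638 FPKM in shNC, 1518 to 1611 in shSNHG1#1 and 1523 to 1614 in shSNHG1#2. Within that list EPCAM and CLDN4 rose with both hairpins, while KRT18, KRT19 and CDH1 fell. KRT8 was called lower with shSNHG1#2 alone. The 6 retinoblastoma and neuroendocrine markers, 4 of them below 1 FPKM in every library, summed to 112 to 116 FPKM in shNC, 43.2 to 44.8 in shSNHG1#1 and 45.3 to 47.3 in shSNHG1#2, nearly all of it ENO2. The 4 Müller glia markers summed to 718 to 728, 466 to 490.03 and 471 to 485 FPKM, nearly all of it VIM. The 4 kidney tubule markers stayed at 2.35 to 3.19 FPKM. The 4 fibroblast markers summed to 1.61 to 2.51 FPKM in shNC and 2.67 to 2.88 in shSNHG1#2, but reached 15.3 in shSNHG1#1, where replicate 1 stood apart with DCN at 9.80 FPKM against 0.26 and 0.21. Values without that library are given beside the changes of the tested members and of the metallothionein sum with shSNHG1#1. For the lists of related genes, only the counts of calls without it are given, near the end. COL1A1 rose with both hairpins. The cells are called by their label only, and the part of these markers in the results was not tested.

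The promoters of the members whose transcripts changed with both hairpins are shown first, because MTF1 is known to act through short sequences in them. The 250 bases upstream of the RefSeq start of each gene (GRCh38.p14) are written 5′ to 3′ on the strand of the gene, in lower case, with capitals for each match to the core of the metal response element. The core was searched as TGCACNC or TGCGCNC on both strands, so a match on the opposite strand appears as its reverse complement. MT2A lies at chr16:56608334-56608583 on the plus strand, MT1X at chr16:56682220-56682469 on the plus strand and SLC30A1 at chr1:211579162-211579411 on the minus strand.
MT2A: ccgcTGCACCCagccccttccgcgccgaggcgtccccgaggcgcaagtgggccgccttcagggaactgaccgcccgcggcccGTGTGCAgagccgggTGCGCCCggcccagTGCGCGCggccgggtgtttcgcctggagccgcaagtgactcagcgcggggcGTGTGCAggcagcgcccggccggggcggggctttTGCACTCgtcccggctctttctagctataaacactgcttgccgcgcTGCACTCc
MT1X: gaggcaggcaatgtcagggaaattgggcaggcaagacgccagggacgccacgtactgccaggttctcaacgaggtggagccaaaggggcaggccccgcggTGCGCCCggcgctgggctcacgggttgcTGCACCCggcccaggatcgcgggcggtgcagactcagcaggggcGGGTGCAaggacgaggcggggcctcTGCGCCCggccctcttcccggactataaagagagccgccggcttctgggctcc
SLC30A1: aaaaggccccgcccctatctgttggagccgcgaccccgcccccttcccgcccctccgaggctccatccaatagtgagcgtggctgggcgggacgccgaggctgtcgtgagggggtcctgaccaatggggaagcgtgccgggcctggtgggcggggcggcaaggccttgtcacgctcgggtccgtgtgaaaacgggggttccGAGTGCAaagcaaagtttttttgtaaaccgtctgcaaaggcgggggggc

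The MT2A window held 7 matches to the core, the MT1X window 4 and the SLC30A1 window 1, while the MTF1 window at chr1:37859593-37859842 on the minus strand held 0. Of 27305 promoter windows of the same length, 24.3% held at least 1 match and 0.381% held at least 4. No match overlapped another match to the core. The first base of the MT2A matches lay between 246 and 8 bases upstream of the start, that of the MT1X matches between 150 and 53, and that of the SLC30A1 match 49 bases upstream. A TATA box (TATAAA) began 29 bases upstream in MT2A and 30 in MT1X. None was found in the SLC30A1 window, and 11.4% of all windows held one. The core of the hypoxia response element (ACGTG or GCGTG, both strands) was present 1 time in MT2A, where it overlapped a metal response element core, 1 time in MT1X, 3 times in SLC30A1 and 2 times in MTF1, and at least 1 time in 42.4% of all windows. A match is a description of the letters, not a site. Entries for MT1E, MT1F and MT1M were not used here.

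MT2A (Entrez 4502) and MT1X (Entrez 4501) carried nearly all metallothionein transcripts, and both were lower with each hairpin. In RefSeq order both stand in the metallothionein cluster on chromosome 16, where MT2A, MT1L, MT1E, MT1M, MT1A, MT1B, MT1F, MT1H and MT1X follow each other in this sequence among other family members. MT2A ranked 111th and MT1X 200th of 27407 features by mean FPKM in shNC. In RNA from a whole culture, fewer cells with a transcript and less of it per cell cannot be told apart.

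MT2A stood at 510.3, 494 and 459 FPKM in shNC replicates 1 to 3, at 301, 285 and 282 FPKM in shSNHG1#1 and at 411, 292 and 308 FPKM in shSNHG1#2. Every library of either hairpin lay below every shNC library. Replicate 1 of shSNHG1#2 stood apart from the other two of its group and nearer to shNC. The means were 488 ± 26.1 FPKM in shNC, 289 ± 9.96 in shSNHG1#1 and 337 ± 64.8 in shSNHG1#2 (SD, n = 3). By counts, MT2A fell 1.74-fold with shSNHG1#1 (log2 fold change -0.80, SE 0.11, edgeR's quasi-likelihood test with Benjamini-Hochberg adjustment, adjusted p = 0.00012). With shSNHG1#2 it fell 1.51-fold (log2 fold change -0.60, SE 0.11, adjusted p = 0.001), and the log2 fold change was -0.78 without replicate 1 of that group. Without shSNHG1#1 replicate 1, the library with high DCN, the first value was -0.84 (adjusted p = 0.00053).

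MT1X, which lies at the other end of the cluster from MT2A, differed between all 3 groups. Its levels were 283, 303 and 269 FPKM in shNC, 143, 132 and 141 FPKM in shSNHG1#1 and 235, 212 and 225 FPKM in shSNHG1#2. The groups formed 3 separate bands, with shSNHG1#2 between the other two. The means were 285 ± 17.0, 139 ± 6.06 and 224 ± 11.7 FPKM (SD, n = 3). MT1X fell 2.12-fold with shSNHG1#1 (log2 fold change -1.09, SE 0.06, adjusted p = 7.3e-08) and 1.33-fold with shSNHG1#2 (-0.42, SE 0.05, adjusted p = 9.7e-05). The first value was -1.12 without shSNHG1#1 replicate 1 (adjusted p = 7.2e-07). A larger size of change than that of MT1X was seen for 6.87% of features with shSNHG1#1 and for 33% with shSNHG1#2.

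**Figure D1:**
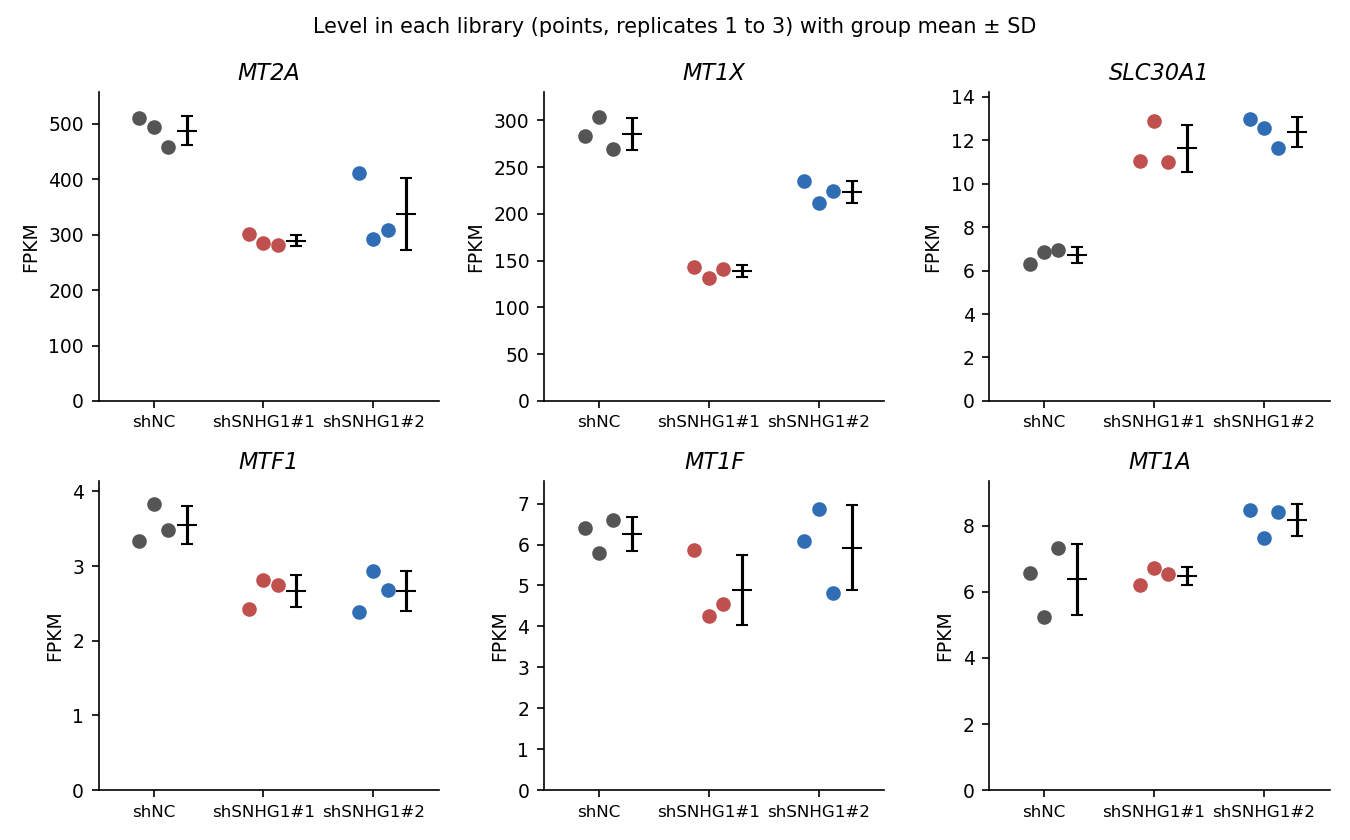
FPKM (vertical axes, from 0) of 6 genes in each library, with points for replicates 1 to 3 from left to right and bars for the group mean ± SD (n = 3). MT2A and MT1X are lower and SLC30A1 is higher in every hairpin library than in every shNC library, and MT1X forms 3 separate bands at means of 285, 139 and 224 FPKM.

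Of the 5 tested members, 3 passed with shSNHG1#1, where 48.1% of all features passed, 23.5% lower and 24.5% higher. MT1X and MT2A were the lower ones and SLC30A1 the higher one. With shSNHG1#2, 4 passed, against 46.2% of all features, 22.8% lower and 23.3% higher. MTF1 was then the third gene on the lower side. When counts were scaled by library totals alone, the share of higher calls among all features rose from 50.5% to 60.9% for shSNHG1#2. FPKM ranges did not overlap between shSNHG1#1 and shNC for MT2A, MT1X, MTF1 and SLC30A1, as for 53.3% of all tested features. With shSNHG1#2 they did not overlap for the same 4 genes and for MT1E, which was too low to test, as for 52.6% of tested features. Both comparisons share the shNC libraries.

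**Figure D2:**
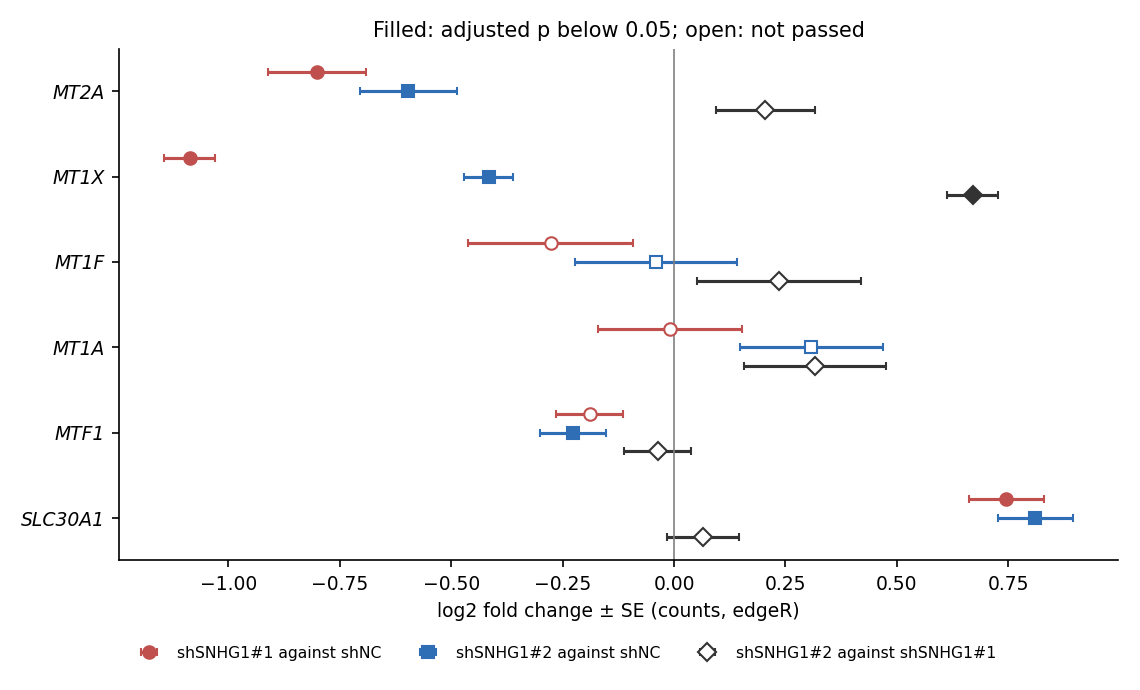
Log2 fold change by counts with its SE (horizontal axis) of 6 genes in 3 comparisons, filled where the adjusted p was below 0.05. MT2A and MT1X lie left of 0 and SLC30A1 right of 0 for both hairpins against shNC, and MT1X alone of the 6 has a filled mark for shSNHG1#2 against shSNHG1#1, at 0.67.

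The remaining metallothioneins were low. MT1F (Entrez 4494) stood at 6.40, 5.80 and 6.59 FPKM in shNC, 5.87, 4.25 and 4.54 FPKM in shSNHG1#1 and 6.09, 6.88 and 4.81 FPKM in shSNHG1#2. All 3 ranges overlapped. Its log2 fold change was -0.28 (95% interval -0.69 to 0.13, adjusted p = 0.25) with shSNHG1#1 and -0.04 (-0.45 to 0.36, adjusted p = 0.88) with shSNHG1#2. The first value was -0.43 without shSNHG1#1 replicate 1 (adjusted p = 0.11). Whether MT1F differed from MT2A or MT1X in its change was not tested. Dividing counts by FPKM gives an effective MT1F length of 439 and 444 bases in shNC replicates 2 and 3. It was 483 to 527 bases in the other libraries. The part of this length in the MT1F levels by FPKM was not tested.

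MT1A, a family gene outside the list of members, stood at 6.57, 5.23 and 7.34 FPKM in shNC, 6.20, 6.72 and 6.54 FPKM in shSNHG1#1 and 8.47, 7.62 and 8.42 FPKM in shSNHG1#2. The shSNHG1#2 libraries all lay above the others, while shNC and shSNHG1#1 overlapped. By counts the log2 fold change was -0.01 (95% interval -0.37 to 0.35, adjusted p = 0.97) with shSNHG1#1 and 0.31 (-0.05 to 0.66, adjusted p = 0.14) with shSNHG1#2. On the log2(FPKM + 1) scale with limma the second value was 0.32 and passed (adjusted p = 0.031).

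MT1E (Entrez 4493) and MT1M (Entrez 4499) were close to absent and were not tested. MT1E was highest in replicate 1 of shSNHG1#1, the library with high DCN, at 0.68 FPKM against 0 and 0.11 in the rest of its group, and did not exceed 0.39 FPKM in any other library. Its rounded counts summed to 4 in shNC, 10 in shSNHG1#1 and 9 in shSNHG1#2, a ratio to shNC of 2.5 (95% exact interval 0.721 to 10.9) and 2.25 (0.628 to 10.0). Replicate 1 gave 7.99 of the estimated counts of MT1E in shSNHG1#1. MT1M had 2 counts in shNC, 3 in shSNHG1#1 and 0 in shSNHG1#2, with a ratio of 1.5 (0.172 to 18.0) for the first pair. These intervals cover counting error only. MT1B, MT1H and MT1L did not exceed 2 counts in any group, nor did MT3, a metallothionein best known from brain. A difference of several fold in any of them was not detectable at this depth.

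Summed over the 10 metallothionein genes in the table, transcripts were 806, 808 and 742 FPKM in the shNC libraries, 457, 428 and 434 FPKM in shSNHG1#1 and 661, 519 and 546 FPKM in shSNHG1#2. The groups did not overlap, and shSNHG1#2 lay between the others. By scaled counts, the log2 ratio of group means was -0.88 for shSNHG1#1 and -0.52 for shSNHG1#2 against shNC. The former was -0.905 without replicate 1 of shSNHG1#1 and the latter -0.64 without replicate 1 of shSNHG1#2. MT2A and MT1X together made up 98.4% ± 0.265 of the sum in shNC, 97.3% ± 0.157 in shSNHG1#1 and 97.4% ± 0.333 in shSNHG1#2 (SD, n = 3).

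**Figure D3:**
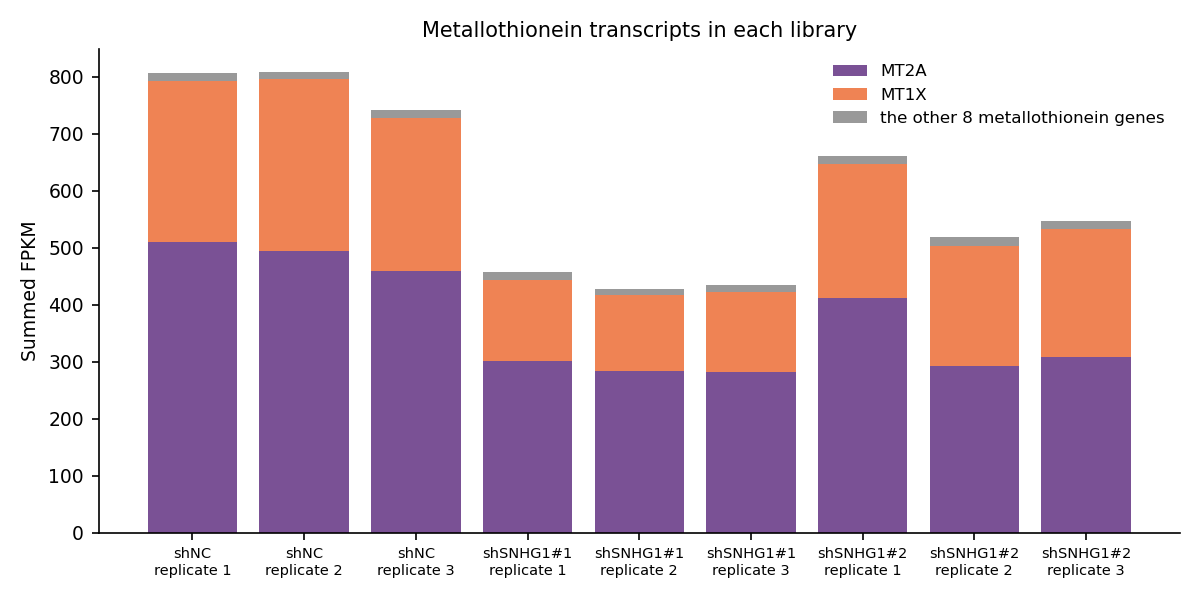
Summed FPKM of the 10 metallothionein genes (vertical axis) in each of the 9 libraries, divided into MT2A, MT1X and the rest. The shNC libraries reach 742 to 808 FPKM, shSNHG1#2 519 to 661 and shSNHG1#1 428 to 457, and the rest is a thin band at the top of every bar.

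The balance of the pair varied between libraries. MT2A exceeded MT1X by 1.71 ± 0.0879 times in shNC, 2.09 ± 0.0786 times in shSNHG1#1 and 1.501 ± 0.217 times in shSNHG1#2 (FPKM, SD, n = 3). The 3 values of shSNHG1#1 lay above all others. In shSNHG1#2, replicate 1 had a ratio of 1.75, within the shNC range, and the other libraries 1.38 and 1.37. No test was made on this ratio, since its members were chosen with earlier results known.

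Part of the sequence of metallothionein transcripts is shared with other genes, so some reads could be assigned to the wrong gene. In GENCODE version 29, 4.24% of the 50-base windows of MT2A protein-coding transcripts and 8.28% of those of MT1X also occur in a transcript of another metallothionein, and 0% of either at 100 bases. With every other gene counted, 43.6% of the 50-base windows of MT1X are shared. At 100 bases, 30.8% of MT1X windows occur in AC026461.1, an annotated gene that shares sequence with MT1X, so part of the MT1X value may belong to that transcript. The share with another metallothionein was 7.1% for MT1E, 3.27% for MT1F and 9.87% for MT1M at 50 bases, and 0% at 100 bases. The read length is not given in the sources used here.

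MTF1 (Entrez 4520, chromosome 1), the factor that senses zinc, was expressed at a low level. MTF1 stood at 3.33, 3.83 and 3.48 FPKM in shNC, 2.43, 2.82 and 2.75 FPKM in shSNHG1#1 and 2.39, 2.93 and 2.68 FPKM in shSNHG1#2. Every hairpin library lay below every shNC library in FPKM. The estimated counts, on which the test rests, differed less: 492, 466 and 461 in shNC, 407, 428 and 450.5 in shSNHG1#1 and 375, 453 and 440.4 in shSNHG1#2. Dividing counts by FPKM gives an effective MTF1 length of 5647 to 6846 bases for the shNC libraries, 7050 to 7764 for shSNHG1#1 and 7192 to 7639 for shSNHG1#2. The part of this length in the FPKM difference was not tested.

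By counts, MTF1 had a log2 fold change of -0.19 (SE 0.07, adjusted p = 0.059) with shSNHG1#1 and fell with shSNHG1#2 (-0.23, SE 0.07, adjusted p = 0.029). The first value was -0.16 without shSNHG1#1 replicate 1 (adjusted p = 0.14). The second call ended without shNC replicate 1 (adjusted p = 0.086), without shNC replicate 2 (0.051), without shSNHG1#2 replicate 1 (0.10) and when scaled by library totals alone (0.12). The first passed under 6 alternatives: without shSNHG1#2 replicate 1 (adjusted p = 0.022) or replicate 2 (0.047), with the size factors of DESeq2 in edgeR (0.047), with DESeq2 itself (0.045), with limma on log2(FPKM + 1) (0.013) and in a fit of those groups only (0.028). The size of change was 1.14-fold and 1.17-fold, and 65% and 56.6% of all features changed by more.

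SLC30A1 (Entrez 7779, chromosome 1), the zinc exporter gene, was higher with both hairpins, the opposite side from MT2A and MT1X. It stood at 6.29, 6.87 and 6.96 FPKM in shNC, 11.04, 12.89 and 11 FPKM in shSNHG1#1 and 12.99, 12.55 and 11.63 FPKM in shSNHG1#2. Every hairpin library exceeded every shNC library, and the hairpin groups overlapped. The means were 6.71 ± 0.364, 11.6 ± 1.08 and 12.4 ± 0.694 FPKM (SD, n = 3). By counts, SLC30A1 rose 1.68-fold with shSNHG1#1 (log2 fold change 0.75, SE 0.08, adjusted p = 2.9e-05) and 1.75-fold with shSNHG1#2 (0.81, SE 0.08, adjusted p = 1.7e-05). Without shSNHG1#1 replicate 1 the first value was 0.77 (adjusted p = 0.00011). A larger size of change was seen for 15.2% and 11.4% of features.

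By level, the order in shNC was MT2A, MT1X, SLC30A1, MT1F and MTF1, followed by MT1M and MT1E near 0. SLC30A1 and MT1F overlapped there, with means of 6.71 and 6.26 FPKM. In both hairpin groups SLC30A1 stood clear above MT1F, at 11.6 against 4.89 FPKM and 12.4 against 5.93 FPKM, and MT1F remained above MTF1 in every library.

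Between the hairpins, 1 of 5 tested members passed, MT1X, where 3.12% of all features passed, 2% higher and 1.12% lower with shSNHG1#2. MT1X was 1.59-fold higher with shSNHG1#2 than with shSNHG1#1 (log2 fold change 0.67, SE 0.06, adjusted p = 0.00015; 0.69 without shSNHG1#1 replicate 1, adjusted p = 0.00073), and the groups did not overlap, as for 19.2% of features. For MT2A the difference was 0.20 (95% interval -0.04 to 0.45, adjusted p = 0.42), for SLC30A1 0.06 (-0.11 to 0.24, adjusted p = 0.77) and for MTF1 -0.04 (-0.20 to 0.13, adjusted p = 0.87). MT1F differed by 0.24 (-0.17 to 0.64, adjusted p = 0.60). The intervals of SLC30A1 and MTF1 lie closer to 0 than those of MT2A and MT1F. Whether MT1X differed from the other members in this change was not tested. Of all features called, 64% were higher with shSNHG1#2, and 74.8% when scaled by library totals alone.

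Other zinc carriers were read from lists of related genes. Most carriers of the ZnT family move zinc out of the cytosol, into vesicles, the Golgi or the outside. Of 7 tested ZnT-list genes other than SLC30A1, 4 rose with shSNHG1#1 and 5 with shSNHG1#2, and the others did not pass, where 24.5% and 23.3% of all features were higher. The median log2 fold changes were 0.18 and 0.18, against 0.02 and 0.01 for all features. SLC30A3, known for loading zinc into synaptic vesicles, rose 1.82-fold (adjusted p = 0.00011) from 2.15 ± 0.241 to 3.99 ± 0.407 FPKM with shSNHG1#1 and 1.87-fold (adjusted p = 9e-05) to 4.27 ± 0.425 FPKM with shSNHG1#2 (SD, n = 3).

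The other ZnT calls were small. SLC30A5 and SLC30A6, which load zinc into the early secretory pathway as a pair, had log2 fold changes of 0.21 and 0.16 with shSNHG1#1 and 0.18 and 0.13 with shSNHG1#2. SLC30A9 had 0.18 and 0.22. SLC30A9 lost its call with shSNHG1#1 without shNC replicate 1 or 3, without shSNHG1#1 replicate 2 or 3, or without any 1 of the shSNHG1#2 libraries (adjusted p up to 0.17), with the size factors of DESeq2 (0.051), with no filter (0.060) and in a fit of those groups only (0.072), and with shSNHG1#2 without shNC replicate 3 or shSNHG1#2 replicate 3 (up to 0.073). SLC30A6 lost it with shSNHG1#1 without shNC replicate 2 or shSNHG1#1 replicate 2 (up to 0.060) and with limma on FPKM (0.13). With shSNHG1#2, SLC30A6 lost it without any shNC library or shSNHG1#2 replicate 2 or 3 (up to 0.11), with no filter (0.050) and with limma on FPKM (0.088), and SLC30A5 without shNC replicate 1 or 2 or shSNHG1#2 replicate 2 or 3 (up to 0.091). The 5 calls of the list with shSNHG1#2 became 3 without any 1 of the shNC libraries or shSNHG1#2 replicate 2, 2 without shSNHG1#2 replicate 3, and 3 with limma on FPKM.

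ZIP carriers bring zinc into the cytosol, and their list went both ways. Of 12 tested ZIP genes, 7 rose and 2 fell with shSNHG1#1, and 6 rose and 2 fell with shSNHG1#2, where 48.1% and 46.2% of all features passed. The median log2 fold changes were 0.18 and 0.14. SLC39A10, a plasma membrane importer known to be held down by MTF1 when zinc is high, fell from 25.4 ± 0.950 to 19.5 ± 1.37 FPKM with shSNHG1#1 and 18.5 ± 0.389 FPKM with shSNHG1#2 (log2 fold changes -0.44 and -0.55). SLC39A14, an importer of zinc and iron induced in inflammation, fell from 36.2 ± 0.590 to 28.6 ± 0.612 and 26.3 ± 0.687 FPKM (-0.39 and -0.53). SLC39A7, which releases zinc from the endoplasmic reticulum, rose 1.47-fold and 1.39-fold, and SLC39A3 1.37-fold and 1.35-fold.

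**Figure D4:**
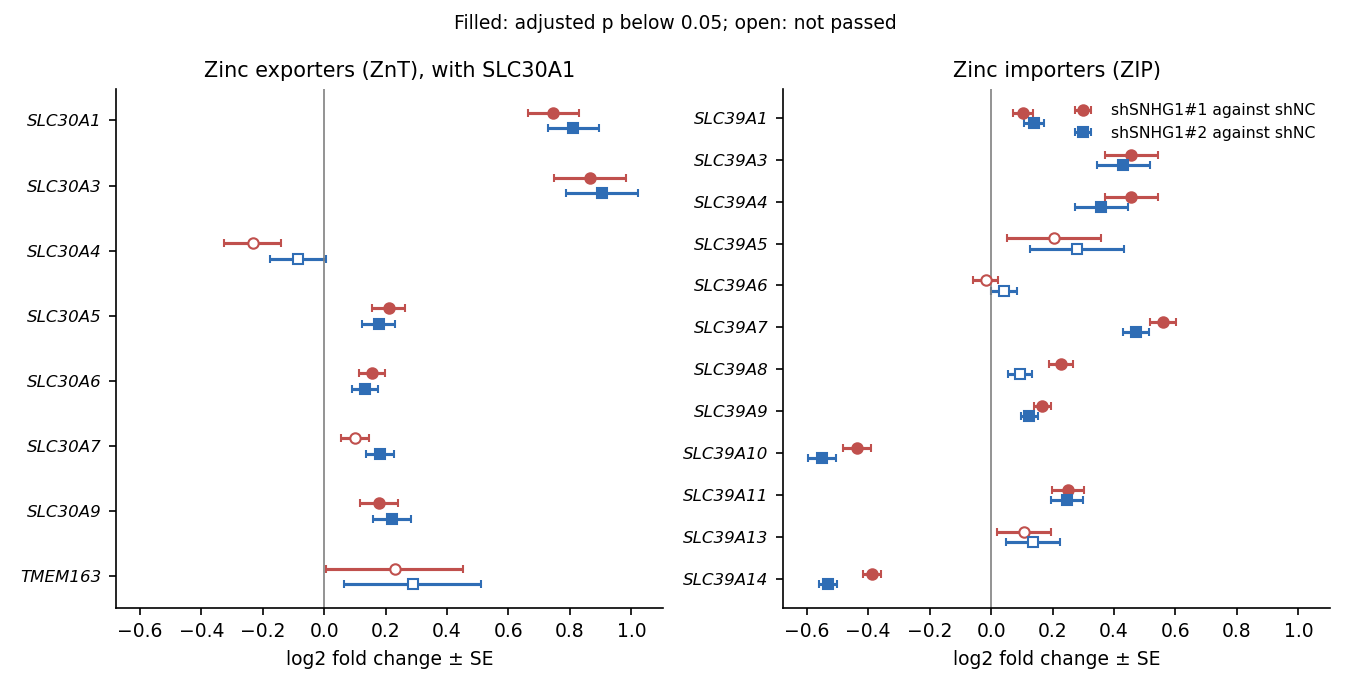
Log2 fold change by counts with its SE (horizontal axes) of the tested ZnT-list genes with SLC30A1 (left) and of the tested ZIP genes (right), for each hairpin against shNC, filled where the adjusted p was below 0.05. SLC30A1 and SLC30A3 lie furthest right among exporters, and SLC39A10 and SLC39A14 are the ZIP genes left of 0 with filled marks for both hairpins.

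Genes that handle copper, the other metal that metallothioneins store, were called for 8 of 14 tested with each hairpin, 6 higher and 2 lower, a share near the 48.1% and 46.2% of all features that passed. SLC31A1, the copper importer that also admits platinum drugs, rose 1.72-fold and 1.57-fold, from 4.81 ± 0.160 to 8.61 ± 0.110 and 7.98 ± 0.232 FPKM. The copper pumps moved in opposite directions: ATP7B rose 1.71-fold and 1.75-fold, while ATP7A fell 1.51-fold and 1.42-fold. STEAP3, a metalloreductase of endosomes, fell 2.05-fold and 1.78-fold. The median log2 fold changes of the list were 0.17 and 0.09.

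Of 12 genes of the glucocorticoid receptor and its response, 7 fell and 3 rose with each hairpin, with medians of -0.51 and -0.57. Of all features, 48.1% and 46.2% passed, 23.5% and 22.8% lower. NR3C1, which encodes the receptor, was 45.3 ± 0.154 FPKM in shNC, 28.7 ± 1.16 in shSNHG1#1 and 32.2 ± 1.29 in shSNHG1#2 (log2 fold changes -0.75 and -0.59), and was singled out after its values were seen. DUSP1 and ERRFI1, feedback inhibitors of kinase signalling, fell 4.42-fold and 4.57-fold with shSNHG1#1 and 4.98-fold and 3.99-fold with shSNHG1#2, and CEBPD fell 1.90-fold and 2.07-fold. FKBP5, a cochaperone of the receptor, rose 1.72-fold and 1.66-fold.

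Among 16 genes of the response to electrophiles and metals, 12 fell with each hairpin, and 4 rose with shSNHG1#1 and 2 with shSNHG1#2, with medians of -0.71 and -0.65. Against these stand the 23.5% and 22.8% of all features that were lower and the 48.1% and 46.2% that passed. GCLM and SLC7A11 rose with each hairpin, and NQO1 and SRXN1 were called higher with shSNHG1#1 only. The highest log2 fold changes of the list were 0.43 and 0.34. The chaperone genes HSPA1B, HSPA1A and DNAJB1 fell 3.15-fold, 2.75-fold and 2.78-fold with shSNHG1#1 and 3.40-fold, 2.78-fold and 2.82-fold with shSNHG1#2, and reads of HSPA1A and HSPA1B may be shared. OSGIN1 fell 2.73-fold and 2.68-fold. HMOX1, the haem oxygenase gene that cadmium induces, stood at 122 ± 3.94 FPKM in shNC, 68.3 ± 4.23 in shSNHG1#1 and 61.1 ± 2.82 in shSNHG1#2 and was singled out after its values were seen.

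Of 10 transcription factors and coactivators that have been placed at metallothionein promoters or in zinc or hypoxia responses, 7 fell and 1, HIF1A, rose with each hairpin (medians -0.23 and -0.20), where 48.1% and 46.2% of all features passed. HIF1A rose 3.61-fold and 3.25-fold. CREBBP and KAT2B, both histone acetyltransferases, fell 1.99-fold and 1.62-fold with shSNHG1#1 and 1.81-fold and 1.59-fold with shSNHG1#2, and STAT3 fell 1.26-fold and 1.24-fold.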

How the data were processed

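RNA of 9 samples was made into libraries in the BGI500 format, as the labels' protocols state. In the deposited table stand, per the file headers, an estimated count (expected count, not always whole) and an FPKM value for each feature and library; the authors' means were not used. Per the submitters' processing notes, RSEM 1.2.12, Bowtie2 2.2.5, DESeq2 1.4.5 and HISAT2 2.0.4 were used, and no role is stated. Genome build, annotation and strand use: not given in the sources used here. Columns were matched to samples by hairpin and replicate number.

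Rounded counts entered edgeR 4.0.16 (R 4.3.3) with TMM scaling, filterByExpr, a quasi-likelihood F test in which the 9 libraries share 1 estimate of spread and group is the sole factor, and Benjamini-Hochberg adjustment over 18767 features at a threshold of 0.05. SEs were derived from the F statistic, and 95% intervals of log2 fold changes use the total degrees of freedom of the fit. The fit was tested on simulated data with few changed features, all in shSNHG1#1. That simulation does not test the fit at the far larger share of changes called here. Limma 3.58.1, DESeq2 1.42.0, other scalings, no filter, a replicate block, fits of 2 groups and leaving out each library were alternatives. Promoter sequences are from RefSeq (GRCh38.p14): 4 of 7 members matched.

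The members and 8 lists of related genes were chosen with earlier results of these data known. From each list up to 4 genes are named by rule. They are those called for each hairpin on the same side, at 1 FPKM or more, with the largest mean change. Outside this rule, NR3C1 and HMOX1 were added after their values were seen. The same holds for PER1, EP300 and the genes given as higher in the stress list. Family genes outside the members were named whatever their values. The labels name no separate cultures behind the replicates. The p-values then reflect just the spread among these samples, possibly a technical one. Replicates of a group differed by more than counting noise (chi-square per degree of freedom 3.12 to 6.29).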

Additional observations from a re-analysis of the deposited data

Results flagged for a closer look

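MT1X differed between the hairpins by the test of the difference itself: it was higher with shSNHG1#2 than with shSNHG1#1 by a log2 fold change of 0.67 (edgeR's quasi-likelihood test, adjusted p = 0.00015). All 3 shSNHG1#2 libraries (212 to 235 FPKM) lay above all 3 shSNHG1#1 libraries (132 to 143 FPKM). Leaving out 1 library gave 0.64 to 0.72, with adjusted p up to 0.0015.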

How the results depend on the processing

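The direction and call of MT2A, MT1X and SLC30A1 against shNC held under every alternative run, leaving out each library included. Without 1 library the log2 fold changes were -0.86 to -0.78 and -0.78 to -0.50 for MT2A, -1.14 to -1.05 and -0.47 to -0.38 for MT1X, and 0.65 to 0.78 and 0.76 to 0.86 for SLC30A1, with shSNHG1#1 and shSNHG1#2. Values that were not called changed sign in places. MT1A with shSNHG1#1 was 0.037 by library totals alone and 0.031 by limma on FPKM, and -0.125 to 0.082 without 1 library, including 0.001 without shSNHG1#1 replicate 1. MT1F with shSNHG1#2 was 0.024 by library totals alone and -0.138 to 0.06 without 1 library, including 0.044. MTF1 between the hairpins was -0.078 to 0.046 without 1 library, including 0.005. Between the hairpins, 586 features were called, but 959 by DESeq2, 386 in a fit of those groups only, and 297 to 534 without 1 library, where the count was 351 without shSNHG1#1 replicate 3, 297 without shSNHG1#2 replicate 2 and 349 without shSNHG1#2 replicate 3. The cause was not tested. Replicate numbers did not pair the libraries. Deviations of libraries with the same number correlated at -0.036 to 0.032, and those with other numbers at -0.052 to 0.047. In both other groups, 1 of 9 libraries correlated best with its own number. With the number as a replicate block, 8752, 8421 and 433 features and 3, 4 and 1 members were called. Counts of list members called were examined under the alternatives only after the data were seen. Without shSNHG1#1 replicate 1, which had high DCN, 8 of 12 ZIP genes, not 9, and 15 of 16 stress genes, not 16, were called with that hairpin, and the counts of the other lists did not move. Depth limits MT1E, MT1M, MT1B, MT1H, MT1L and MT3, whose counts were too few to test.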

Other observations

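Zinc-dependent enzymes and partners went both ways. Of 8 tested, 2 rose and 4 fell with shSNHG1#1, and 1 rose and 4 fell with shSNHG1#2, with median log2 fold changes of -0.03 and -0.20. Of all features, 48.1% and 46.2% passed, and whether this list differs from that share was not tested. CA9, the carbonic anhydrase induced by hypoxia, fell from 45.3 ± 1.31 to 6.22 ± 0.450 and 11.2 ± 0.649 FPKM (SD, n = 3), and CA12, a related enzyme at a far higher level, from 736 ± 3.08 to 595 ± 8.90 and 627 ± 6.22 FPKM. By counts, the log2 fold changes of CA9 were -2.33 and -1.82, smaller falls than its FPKM give. CA9 was also called between the hairpins, 0.52 higher with shSNHG1#2. Without 1 library that value was 0.38 to 0.60, with adjusted p up to 0.078 in edgeR's test. In the other lists, NR3C1, PER1, ERRFI1, STEAP3 and EP300 were also called higher with shSNHG1#2 than with shSNHG1#1, and SLC39A14 lower. Of all features, 3.12% passed between the hairpins, 2% higher and 1.12% lower. Without 1 library the glucocorticoid list gave 2 to 3 such calls, the copper list 1, and the ZIP and transcription factor lists 0 to 1. ADAM17, a zinc protease that sheds membrane proteins, fell 1.25-fold and 1.25-fold. MMP14, a membrane-bound zinc protease, rose 2.23-fold and 1.92-fold.

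Over the 9 libraries, the genes outside the lists whose log2 CPM followed MT2A most closely, of 12628 named genes whose average log2 CPM reached 2, were TTC30A (Pearson's r 0.986), UBE2V1 (0.986), IFITM3 (0.985), MRPL17 (0.98) and LOC105376504 (0.978). IFITM3, an interferon-induced antiviral gene, went from 410.5 FPKM in shNC to 236 and 298 FPKM. For SLC30A1 they were DCAF7 (0.992), MTOR (0.991), ZNF488 (0.989), FOPNL (0.989) and MDC1 (0.989), all higher with both hairpins. These correlations describe 9 libraries in 3 groups that share their group differences, and no test was made.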
